A study of Mus musculus with 9 samples.

Results

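The imprinted domain of distal mouse chromosome 7 was followed in RNA-seq libraries of spermatogonial stem cells (SSC) and of induced pluripotent stem cells (iPSC) through 10 genes, which are H19, Igf2, Cdkn1c, Phlda2, Kcnq1ot1, Slc22a18, Nap1l4, Tssc4, Ascl2 and Osbpl5. They were taken from the deposited table by the position of its loci in the GRCm38 build, and 9 of the 10 are among the 11172 genes to which a locus could be tied. Of these, 7 had a locus of their own. Igf2 shared its locus with Gm49394 and Tssc4 lay inside a locus that spans Cd81, so that the values of both loci are sums over 2 genes. Kcnq1ot1 had no locus of its own and is described from the pieces that lie inside it.

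The libraries comprise 3 groups of 3. All 9 came from 1 mouse strain that carries the alleles Gt(ROSA)26Sortm1(rtTA*M2)Jae, a doxycycline-dependent activator, and Col1a1tm3(tetO-Pou5f1,-Sox2,-Klf4,-Myc)Jae, its target. Doxycycline thereby switches on Pou5f1, Sox2, Klf4 and Myc, and the SSC carried the same transgenes as the iPSC. SSC were primary cells (passage 0) of testes taken 6 days after birth, enriched with magnetic beads for the surface marker Gfra1. SSCiPSC were derived from SSC and fiPSC from fetal fibroblasts. Both were raised in medium with LIF and doxycycline as clonal lines, and were purified for SSEA1 to reduce feeder cells. The labels place the iPSC at passages 10 to 11, whereas the study's methods give later passages and withdraw doxycycline before them. The study calls the libraries biological samples, but the sources used here do not tie each to a line or to animals, so p-values measure only the spread between these libraries, which may in part be technical. The values are FPKM, that is fragments per kilobase of transcript, scaled to the mapped fragments of the library. From the steps between the lowest values the libraries held an estimated 1770000, 4640000 and 1390000 fragments in SSC replicates 1, 2 and 3, 15700000, 13700000 and 14900000 in SSCiPSC and 13200000, 17500000 and 15500000 in fiPSC. The SSC libraries were therefore the shallowest, and a value of 0 says least in them.

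Imprinted genes are transcribed from the allele of a single parent, and the choice is kept by DNA methylation that is laid down in the germ line at imprinting control regions. The domain holds a pair of such regions. The region upstream of H19 is methylated on the paternal allele, where H19 is silent and Igf2 is transcribed, while on the maternal allele the insulator protein Ctcf binds it and H19 is transcribed. The second region lies at the start of Kcnq1ot1 inside Kcnq1 and is methylated on the maternal allele. On the paternal allele it is unmethylated, the long non-coding RNA Kcnq1ot1 is made from it, and Cdkn1c, Phlda2, Slc22a18 and further genes are silent there. The study asked whether imprinting marks are lost when SSC are reprogrammed, and of these regions it measured methylation only at that of H19. Methylation was not analysed here, and the libraries do not separate the alleles, so each value is the sum of both.

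H19 and Igf2 each hold a microRNA, and the mature sequences are shown because their host genes are among the members that were lower in iPSC. Capitals mark the seed (bases 2 to 8), and the sequences and positions are those of RefSeq in GRCm38.p6, minus strand. MiR-675 lies in H19 at chr7:142577112-142577133 (5p arm) and chr7:142577078-142577099 (3p arm), within an exon in 3 of the 4 annotated H19 transcripts that span it. MiR-483 lies in Igf2 at chr7:142654968-142654989 (5p arm) and chr7:142654932-142654952 (3p arm), within an intron of all 7 Igf2 transcripts that span it. The 4 arms have 4 different seeds. The libraries were not made to count mature microRNAs, so only the host genes have values.
mmu-miR-675-5p: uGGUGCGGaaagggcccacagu
mmu-miR-675-3p: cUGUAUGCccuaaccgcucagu
mmu-miR-483-5p: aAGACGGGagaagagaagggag
mmu-miR-483-3p: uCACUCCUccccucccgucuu

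Around the Kcnq1ot1 control region 3 promoters are shown, those of Phlda2, which was higher in fiPSC than in SSC, of its neighbour Slc22a18, which was listed at 0 in SSC, and of Kcnq1ot1 itself. Each line gives the 250 bases before the start of the gene in RefSeq (GRCm38.p6), read on the strand of the gene, and capitals mark each CpG, the dinucleotide on which methylation is found. Phlda2 is shown at chr7:143502525-143502774 (minus strand), Slc22a18 at chr7:143473539-143473788 (plus strand) and Kcnq1ot1 at chr7:143296548-143296797 (minus strand). The Phlda2 window lies inside the locus whose values are given below, and the Slc22a18 window runs past the start of its locus. RefSeq and the deposited table thus place these starts differently. Phlda2 has 21 CpG in this window, Kcnq1ot1 5 and Slc22a18 0, where the median of the 32851 promoters in the table is 6 and 16.3% of them have at least 21. On both strands together the motif GGGCGG, bound by Sp1, occurs 2 times before Phlda2 and the motif TATAAA, bound by the basal machinery, 1 time, and neither occurs before the other two. The motif CCAAT, bound by NF-Y, occurs 3 times before Kcnq1ot1, 1 time before Phlda2 and 0 times before Slc22a18. Of all promoters 32.7% hold GGGCGG, 12.4% TATAAA and 33.8% CCAAT, and the CpG within GGGCGG is also counted as a CpG. Among members not shown, GGGCGG also occurs before Ascl2, which passed in neither comparison with SSC. It occurs as well before some starts of Igf2 and Osbpl5, which were lower in iPSC. These are matches of letters, no binding was measured, and whether CpG or motifs go with the change of a gene was not tested.
Phlda2: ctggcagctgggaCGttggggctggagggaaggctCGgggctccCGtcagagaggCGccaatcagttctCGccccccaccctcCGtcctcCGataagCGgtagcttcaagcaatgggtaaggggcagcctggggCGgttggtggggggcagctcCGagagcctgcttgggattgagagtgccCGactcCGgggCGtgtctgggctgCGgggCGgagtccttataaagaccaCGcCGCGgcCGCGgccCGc
Slc22a18: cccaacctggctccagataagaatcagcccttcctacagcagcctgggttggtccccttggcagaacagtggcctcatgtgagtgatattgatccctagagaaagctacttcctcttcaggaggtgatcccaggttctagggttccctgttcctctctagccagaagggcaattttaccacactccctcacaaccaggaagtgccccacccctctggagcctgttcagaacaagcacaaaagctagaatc
Kcnq1ot1: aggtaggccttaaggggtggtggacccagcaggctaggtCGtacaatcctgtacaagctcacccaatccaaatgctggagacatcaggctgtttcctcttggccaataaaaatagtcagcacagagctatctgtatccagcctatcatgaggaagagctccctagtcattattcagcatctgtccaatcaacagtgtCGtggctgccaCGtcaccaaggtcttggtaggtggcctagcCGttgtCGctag

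The labels of the groups were compared with marker genes. Gfra1, the receptor used for the enrichment, was at 37.7, 34.1 and 23.9 FPKM in SSC replicates 1, 2 and 3 and at 0.171 or less in every iPSC library. Zbtb16, a transcription factor of undifferentiated spermatogonia, was at 72.0, 77.4 and 51.9 FPKM in SSC. Nanog, a core factor of pluripotent cells, was listed at 0 in the 3 SSC libraries and at 483, 456 and 426 FPKM in SSCiPSC and 279, 270 and 295 FPKM in fiPSC. These 3 markers followed the labels. The SSC libraries also held RNA of testis somatic cells. The 8 Sertoli cell markers with a locus of their own summed to 1408, 1432 and 1168 FPKM in SSC, led by Clu, and to between 10.4 and 14.7 FPKM in the iPSC libraries, where Cst12 and Defb19 were at 0. The 4 markers of Leydig cells, led by Cyp11a1, summed to 171, 154 and 269 FPKM in SSC and to at most 0.742 FPKM in iPSC, where Lhcgr was at 0. The 4 markers of peritubular myoid cells with a locus of their own, led by Acta2 in SSC, summed to 85.8, 76.9 and 70.2 FPKM in SSC and to between 8.98 and 12.5 FPKM in iPSC, with Myh11 at 0 in SSCiPSC. The 6 endothelial markers summed to 117, 56.8 and 96.8 FPKM in SSC and to between 83.4 and 127 FPKM in iPSC, the latter mostly from Pecam1, which pluripotent cells also express. Cdh5, the cadherin of endothelial junctions, was at 22.2, 12.6 and 27.2 FPKM in SSC and at 0.0458 FPKM or less in iPSC, and Emcn was at 0 there. The 14 germ line markers, led by Dazl, summed to 679, 837 and 548 FPKM in SSC, 350, 588 and 404 FPKM in SSCiPSC and 354, 317 and 424 FPKM in fiPSC. In each comparison with SSC 9 of them were lower in iPSC and 4 were higher, namely Etv5, Kit, Sall4 and Lin28a, of which Sall4 and Lin28a also stand on the list of pluripotency markers. Over all loci 24.1% were lower and 26.2% higher in SSCiPSC, and 23.7% and 28% in fiPSC. Of the 9 that were lower, Gfra1, Ret, Zbtb16 and Sohlh1 were below 1 FPKM in every iPSC library. They met the filter given below through the SSC libraries alone, so these counts are a description and not support. Comparisons of iPSC with SSC therefore set pluripotent cells against germ cells together with testis somatic cells, and the part of the somatic cells in the values of the domain was not tested. In bulk RNA, fewer cells of a type and less RNA per cell cannot be told apart.

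H19, Igf2 and Cdkn1c were all far lower in both kinds of iPSC than in SSC, Osbpl5 was lower as well, and Phlda2 was higher. Relative to SSC, 6 of the 8 members that could be tested passed the threshold in SSCiPSC, 2 of them higher and 4 lower, with a median difference of -0.79 in log2(FPKM + 1). Of all 36544 loci tested, 50.3% passed, 26.2% as higher and 24.1% as lower, with a median of 0.11, so a member that passed shared this with many loci. In fiPSC 7 of 9 members passed against SSC, 3 higher and 4 lower, with a median of 0.15, where 51.8% of all 38007 loci passed, 28% as higher and 23.7% as lower, with a median of 0.17. Among these counts, Igf2 in SSCiPSC, Slc22a18 in fiPSC and Osbpl5 in both met the filter (at least 1 FPKM in 3 of 6 libraries) only through the group in which they were high, so the counts are a description and not support. The split of all loci into higher and lower also depends on the filter and the libraries, since in SSCiPSC against SSC it was 9582 higher and 8814 lower here, 6436 and 3271 with a mean of at least 5 FPKM, and 4761 and 6596 without SSCiPSC replicate 3. The threshold was an adjusted p of 0.05 in limma. Since both comparisons use the same SSC libraries, their results are given side by side and are not independent. All differences below are in log2(FPKM + 1), which understates the change of genes at low FPKM.

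**Figure D1:**
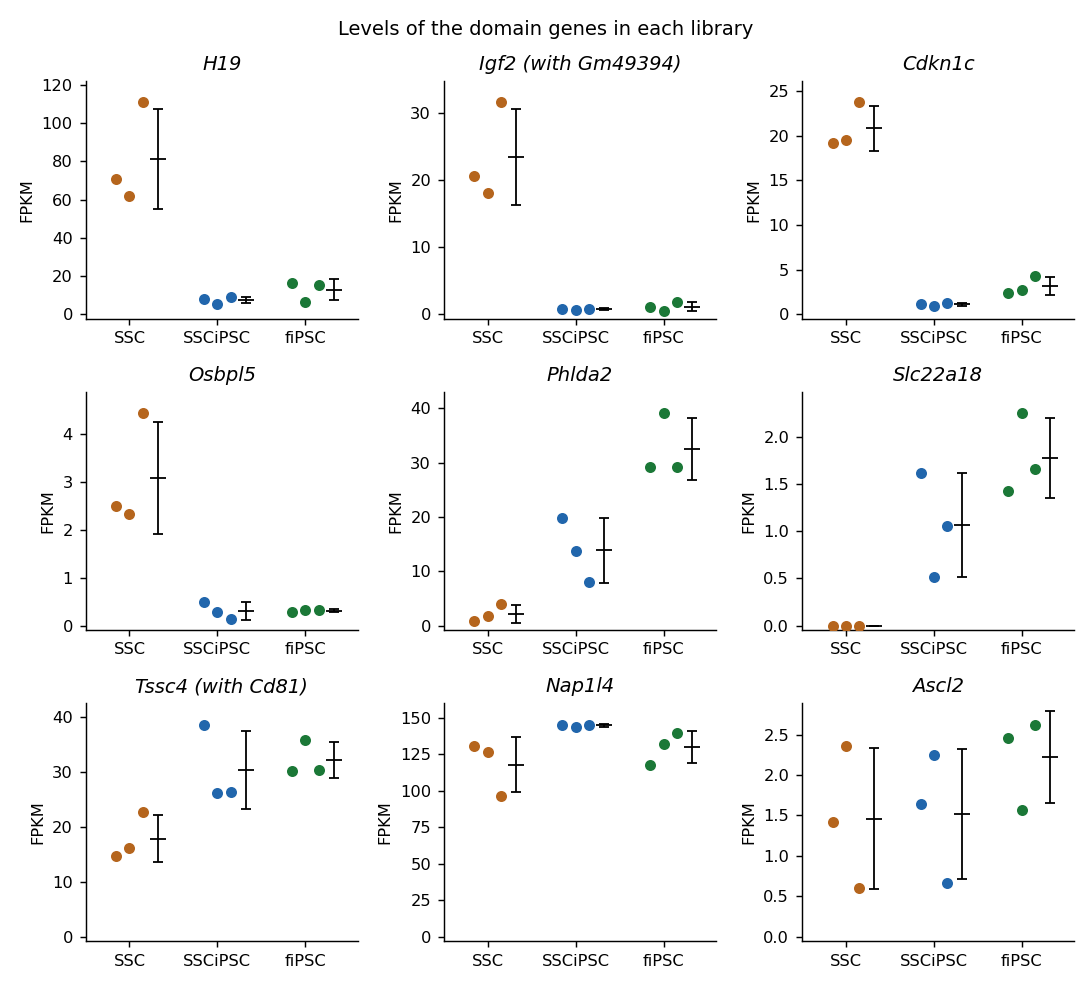
FPKM (vertical axis, from 0) of 9 members in each library of SSC, SSCiPSC and fiPSC; each point is a library, and the black mark is the mean with its SD of 3 libraries. H19, Igf2, Cdkn1c and Osbpl5 are highest in the 3 SSC libraries, where H19 runs from 61.9 to 110.9 FPKM, Phlda2 is highest in fiPSC, and the groups overlap for Ascl2.

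H19 is the long non-coding RNA next to the first control region (chr7:142575491-142578110, minus strand). It was at 70.6, 61.9 and 110.9 FPKM in SSC replicates 1, 2 and 3, at 8.01, 5.53 and 9.04 FPKM in SSCiPSC and at 16.6, 6.66 and 15.6 FPKM in fiPSC. No iPSC library came near an SSC library, while the ranges of the iPSC groups overlapped. The mean in SSC (81.1 ± 26.1 FPKM, SD, n = 3) was 10.8 times that in SSCiPSC (7.53 ± 1.80, n = 3) and 6.26 times that in fiPSC (13.0 ± 5.47, n = 3). In limma H19 was lower in SSCiPSC by a difference of -3.25 ± 0.27 (SE, adjusted p = 0.000262) and in fiPSC by -2.61 ± 0.38 (adjusted p = 0.00192). The exact permutation test gave p = 0.1 in both cases, the smallest two-sided value that 3 against 3 allows.

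Igf2 encodes the growth factor IGF-II, which promotes fetal growth through the receptor Igf1r. Its locus (chr7:142650763-142667629, minus strand) was at 20.6, 18.1 and 31.5 FPKM in SSC, 0.824, 0.689 and 0.871 FPKM in SSCiPSC and 1.12, 0.520 and 1.78 FPKM in fiPSC. This was the steepest fall among the members, with an SSC mean of 29.4 times the SSCiPSC mean and 20.5 times the fiPSC mean. The differences were -3.73 ± 0.27 in SSCiPSC (adjusted p = 0.000164) and -3.52 ± 0.32 in fiPSC (adjusted p = 0.000309), by limma. In the comparison with SSCiPSC the locus met the filter through the SSC libraries alone, and without that filter the adjusted p was 0.000214. Even the lowest iPSC value rested on an estimated 41.7 fragments, so the level was low but measured. The plus strand of the same interval was at 0.539, 1.24 and 0.689 FPKM in SSC and at no more than 0.0618 FPKM in an iPSC library. A further minus strand locus just upstream (chr7:142668174-142670753) was at 0.508, 0.611 and 2.04 FPKM in SSC and at 0 in all 6 iPSC libraries.

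The share of the pair also differed, since the Igf2 locus fell further than H19. In SSC the ratio of Igf2 locus to H19 was 0.291, 0.293 and 0.284, almost the same in the 3 libraries although H19 itself ranged from 61.9 to 110.9 FPKM. In SSCiPSC the ratio was 0.103, 0.125 and 0.0964, and in fiPSC it was 0.0674, 0.0781 and 0.114. The iPSC groups overlapped with each other and neither overlapped with SSC. Both quantities are per length, and the Igf2 value includes Gm49394.

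Cdkn1c encodes p57, an inhibitor of cyclin-dependent kinases of the Cip/Kip family and a brake on growth. Its main locus (chr7:143458290-143459878, minus strand) was at 19.2, 19.6 and 23.7 FPKM in SSC, 1.11, 0.908 and 1.32 FPKM in SSCiPSC and 2.45, 2.70 and 4.31 FPKM in fiPSC. The 3 groups did not overlap, with SSC highest and SSCiPSC lowest. The SSC mean (20.8 ± 2.53 FPKM, SD, n = 3) was 18.7 times that of SSCiPSC and 6.6 times that of fiPSC, and the limma differences were -3.37 ± 0.21 (adjusted p = 0.000114) and -2.41 ± 0.22 (adjusted p = 0.000315). The table splits the gene. On its 5′ side is a second minus strand locus (chr7:143460282-143461035), which was at 10.8, 6.68 and 1.73 FPKM in SSC, 1.5, 0.513 and 0 FPKM in SSCiPSC and 1.06, 0.612 and 1.61 FPKM in fiPSC. It was lower in SSCiPSC by a difference of -2.01 ± 0.62 (adjusted p = 0.0337 in limma), and missed the threshold in fiPSC (-1.61 ± 0.56, adjusted p = 0.0535). Between these lies a locus of 109 bp without strand that is at 0 in 5 libraries and at up to 561 FPKM in SSC replicate 2, a length at which FPKM says little.

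Osbpl5 encodes an oxysterol-binding protein of lipid transport at the distal end of the domain (chr7:143688663-143756996, minus strand). It was at 2.49, 2.32 and 4.42 FPKM in SSC, 0.501, 0.272 and 0.134 FPKM in SSCiPSC and 0.278, 0.330 and 0.327 FPKM in fiPSC. No iPSC value came near the SSC values, and the iPSC groups overlapped. The limma differences from SSC were -1.62 ± 0.27 (adjusted p = 0.00326) and -1.60 ± 0.25 (adjusted p = 0.00230). In both comparisons it met the filter through the SSC libraries alone, and without that filter the adjusted p was 0.00743 in SSCiPSC and 0.00493 in fiPSC.

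Phlda2, which encodes a small pleckstrin homology domain protein that restrains placental growth, went the other way (chr7:143501521-143503212, minus strand). It was at 0.785, 1.80 and 4.02 FPKM in SSC, 19.8, 13.6 and 7.99 FPKM in SSCiPSC and 29.1, 39.0 and 29.2 FPKM in fiPSC. The 3 groups did not overlap, and the order was SSC, SSCiPSC, fiPSC. The limma differences from SSC were 2.26 ± 0.48 in SSCiPSC (adjusted p = 0.00807) and 3.50 ± 0.39 in fiPSC (adjusted p = 0.000625). The SSC values rest on an estimated 0.832, 4.99 and 3.33 fragments, so the SSC level and the size of the change are poorly fixed. Without SSCiPSC replicate 2 and without the filter on low values the adjusted p in SSCiPSC was 0.0517. Cdkn1c and Phlda2, with only Slc22a18 of the members between them, thus moved in opposite directions. The ratio of Phlda2 to Cdkn1c was 0.0409, 0.0921 and 0.169 in SSC, 17.8, 15 and 6.07 in SSCiPSC and 11.9, 14.5 and 6.78 in fiPSC.

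Slc22a18 encodes a membrane transporter and lies between Cdkn1c and Phlda2 on the plus strand (chr7:143473760-143499404). It was listed at 0 in the 3 SSC libraries, at 1.62, 0.514 and 1.06 FPKM in SSCiPSC and at 1.42, 2.25 and 1.66 FPKM in fiPSC. At these depths a 0 allows up to 1.21, 0.464 and 1.55 FPKM in SSC replicates 1, 2 and 3 (the value of 3 fragments, for counting error only), so only the deepest SSC library lies below all iPSC values. In fiPSC it passed in limma (difference 1.46 ± 0.16, adjusted p = 0.000597). It met the filter through the fiPSC libraries alone, the SE takes the SSC values of 0 as exact although replicate 3 allows more than the lowest fiPSC value, and the size depends on the pseudocount, so this call, 1 of the 7 above, is weak. In SSCiPSC too few libraries reached 1 FPKM for the test, and without that filter the difference was 1.01 ± 0.23 (adjusted p = 0.0154).

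The locus of Tssc4 and Cd81 (chr7:143052528-143081874, plus strand) was at 14.7, 16.1 and 22.6 FPKM in SSC, 38.6, 26.1 and 26.2 FPKM in SSCiPSC and 30.1, 35.8 and 30.3 FPKM in fiPSC. Tssc4 encodes a factor of spliceosome assembly and Cd81 a membrane protein of the tetraspanin family, and the value cannot be divided between them. All iPSC values lay above all SSC values. The difference passed in SSCiPSC by a narrow margin (0.73 ± 0.23, adjusted p = 0.0386 in limma) and in fiPSC (0.83 ± 0.18, adjusted p = 0.0103), where the call was lost without fiPSC replicate 2 and without the filter (0.75, adjusted p = 0.0560). In SSCiPSC the call was lost under 13 of 20 alternatives, among them the replicate number as a block (adjusted p = 0.0773), quantile normalization (adjusted p = 0.158) and leaving out SSC replicate 1 (0.108), SSC replicate 2 (0.0996) or any of the SSCiPSC libraries (0.0658 to 0.113).

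Nap1l4 and Ascl2 passed in neither comparison. Nap1l4, a histone chaperone, was the most abundant member (chr7:143513531-143549483, minus strand), at 131, 126 and 96.3 FPKM in SSC, 145, 144 and 145 FPKM in SSCiPSC and 118, 132 and 139 FPKM in fiPSC. Its difference from SSC was 0.31 (95% interval -0.05 to 0.67, adjusted p = 0.131 in limma) in SSCiPSC and 0.15 (-0.21 to 0.51, adjusted p = 0.443) in fiPSC, but quantile normalization turned both, to -0.70 and -0.75. On the FPKM scale its SSCiPSC values lay above all SSC values, and those of fiPSC overlapped with SSC. Ascl2, a transcription factor of trophoblast and of intestinal stem cells (chr7:142966819-142969343, minus strand), was at 1.42, 2.36 and 0.605 FPKM in SSC, 1.64, 2.25 and 0.662 FPKM in SSCiPSC and 2.46, 1.57 and 2.62 FPKM in fiPSC. All groups overlapped. The interval of its difference from SSC ran from -0.88 to 0.97 in SSCiPSC and from -0.38 to 1.24 in fiPSC, so a change of up to about that size could not be seen.

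Kcnq1ot1 spans chr7:143203458-143296549 on the minus strand. A minus strand locus overlaps its start and runs beyond it (given below), but none lies wholly inside it. There are 22 loci without strand that lie wholly inside Kcnq1ot1. They are 148 to 3090 bp long, lie 38.9 to 80.6 kb from its start and cover 14659 of its 93092 bp (15.7%). Having no strand, they cannot be told from RNA of Kcnq1 on the opposite strand. Their mean, weighted by length, was 5.97, 3.58 and 4.72 FPKM in SSC, 4.30, 3.08 and 3.40 FPKM in SSCiPSC and 4.76, 4.58 and 3.46 FPKM in fiPSC. All 3 groups overlapped, and the exact permutation test, which cannot go below p = 0.1 with 3 libraries against 3, gave p = 0.2 for SSCiPSC against SSC, 0.6 for fiPSC against SSC and 0.2 for fiPSC against SSCiPSC (two-sided). Against SSC, 2 pieces were higher and 2 lower of 20 tested in SSCiPSC, and 1 was higher and 1 lower of 20 in fiPSC, where 50.3% and 51.8% of all loci passed. The start of Kcnq1ot1 lies in an interval with 19 loci (chr7:143258888-143362644), of which 17 have no strand. The minus strand locus there was at 10.0, 7.69 and 3.59 FPKM in SSC, 9.42, 9.07 and 10.8 FPKM in SSCiPSC and 10.3, 9.49 and 9.52 FPKM in fiPSC. SSC replicate 3 was lowest, and the other 8 libraries lay between 7.69 and 10.8 FPKM. The differences from SSC were 0.50 ± 0.34 (adjusted p = 0.273) and 0.50 ± 0.33 (adjusted p = 0.255) in limma. Their 95% intervals, -0.33 to 1.33 and -0.31 to 1.31, do not show that the levels were equal. The plus strand locus of that interval was at 3.37, 3.56 and 4.30 FPKM in SSC, 3.25, 1.92 and 2.09 FPKM in SSCiPSC and 2.82, 2.70 and 2.26 FPKM in fiPSC. All iPSC values lay below all SSC values, and neither difference passed (-0.49 ± 0.27, adjusted p = 0.173, and -0.40 ± 0.21, adjusted p = 0.164, in limma).

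**Figure D2:**
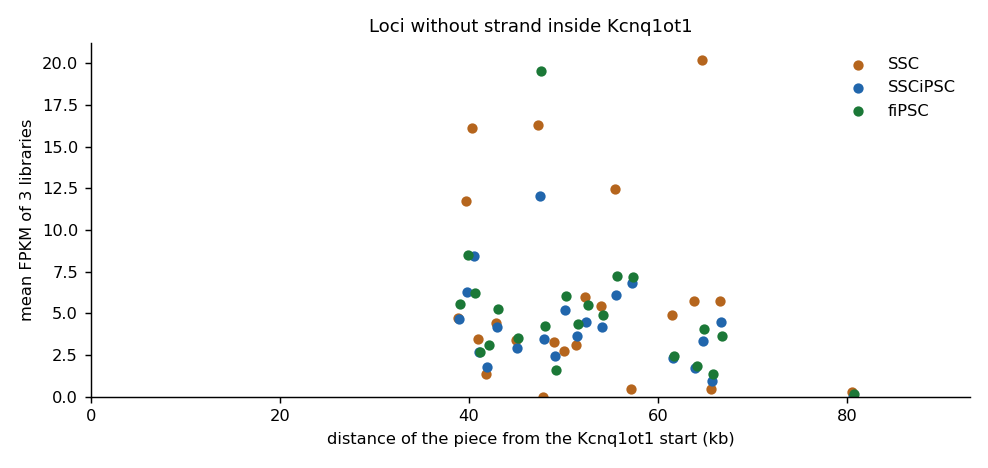
Mean FPKM of 3 libraries (vertical axis, from 0) of the 22 loci without strand inside Kcnq1ot1 against their distance from its start in kb, with a colour for each group. The pieces lie between 38.9 and 80.6 kb, and the groups are intermingled, with a few short pieces high in SSC.

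Along the domain, members that fell and a member that rose lay close to each other. H19 and Igf2, whose starts are 88.7 kb apart, fell, as did Cdkn1c at 883 kb from the H19 start and Osbpl5 at 1179 kb, while Phlda2 at 925 kb rose. Of 19 further genes listed around the domain, 10 had a locus and 6 of these had it to themselves. Lsp1, which encodes a leukocyte protein and lies beyond H19, was at 9.68, 8.02 and 9.85 FPKM in SSC and between 0.156 and 0.767 FPKM in iPSC (differences of -2.82 ± 0.23 in SSCiPSC, adjusted p = 0.000245, and -2.86 ± 0.25 in fiPSC, adjusted p = 0.000292, in limma). In both comparisons Lsp1 met the filter through the SSC libraries alone, so its tests are a description and not support. Cars, the cysteinyl-tRNA synthetase next to Nap1l4, was higher in SSCiPSC (0.53 ± 0.17, adjusted p = 0.0438), with a difference of 0.36 ± 0.14 in fiPSC (adjusted p = 0.0785). Dhcr7 and Nadsyn1 were tested and did not pass, and Syt8 and Tnni2 were too low to test. Among shared loci, that of Ctsd, at 126 to 177 FPKM in SSC, and that of Tnfrsf22 and Tnfrsf23 did not pass either.

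**Figure D3:**
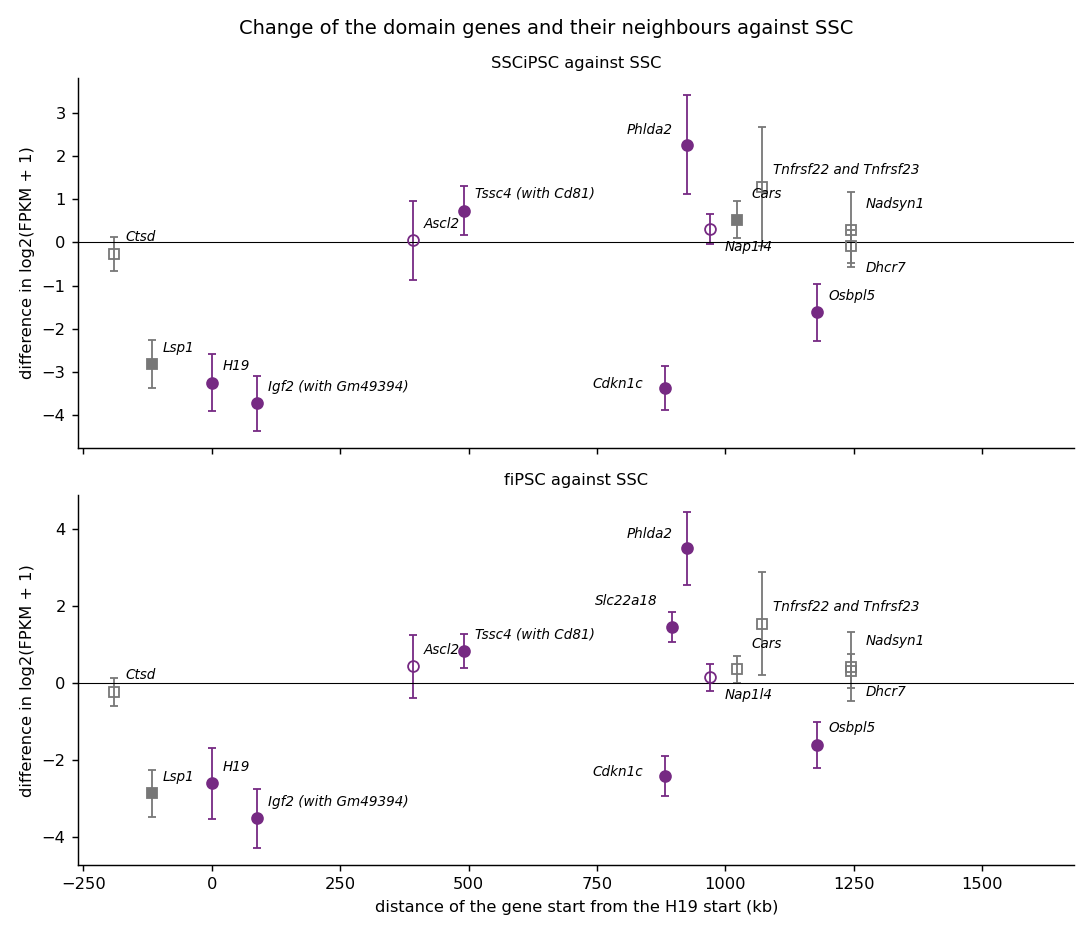
Difference in log2(FPKM + 1) from SSC (vertical axis) of SSCiPSC (upper panel) and fiPSC (lower panel) against the distance of the gene start from that of H19 in kb, with 95% intervals; circles are members, squares are neighbours, and filled marks passed the threshold. H19, Igf2, Cdkn1c and Osbpl5 lie below 0 in both panels and Phlda2, close to Cdkn1c, lies above.

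Among the iPSC, no member passed the threshold between fiPSC and SSCiPSC, 0 of 7 tested, with a median difference of 0.45. Of all 33948 loci only 23 passed (0.0678%, with 0.0236% higher and 0.0442% lower in fiPSC), while 3988 had an unadjusted p under 0.05 and the median was 0.01. The members with an unadjusted p under 0.05 were Cdkn1c and Phlda2. The groups did not overlap for these and for Nap1l4, which was lower in fiPSC (118 to 139 against 144 to 145 FPKM, exact permutation p = 0.1), that is for 3 of 7 members, where 18.6% of all loci tested had groups that did not overlap. Cdkn1c was 2.84 times as high in fiPSC by means (3.15 ± 1.01 against 1.11 ± 0.204 FPKM, SD, n = 3), a difference of 0.95 with a 95% interval of 0.43 to 1.48 (p = 0.00357, adjusted p = 0.229 in limma, exact permutation p = 0.1). Phlda2 was 2.35 times as high (32.5 ± 5.69 against 13.8 ± 5.91 FPKM), a difference of 1.25 with an interval of 0.54 to 1.95 (p = 0.00393, adjusted p = 0.237 in limma, exact permutation p = 0.1). Neither was called under any of 20 alternatives, with adjusted p between 0.186 and 0.689 for Cdkn1c and between 0.172 and 0.709 for Phlda2. For H19 the difference was 0.64 (-0.16 to 1.44, adjusted p = 0.516), with fiPSC replicates 1 and 3 above and replicate 2 within the SSCiPSC range. Igf2 and Osbpl5 were too low for the test. Without the filter their differences were 0.21 ± 0.24 (adjusted p = 0.793) and 0.02 ± 0.12 (adjusted p = 0.974).

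**Figure D4:**
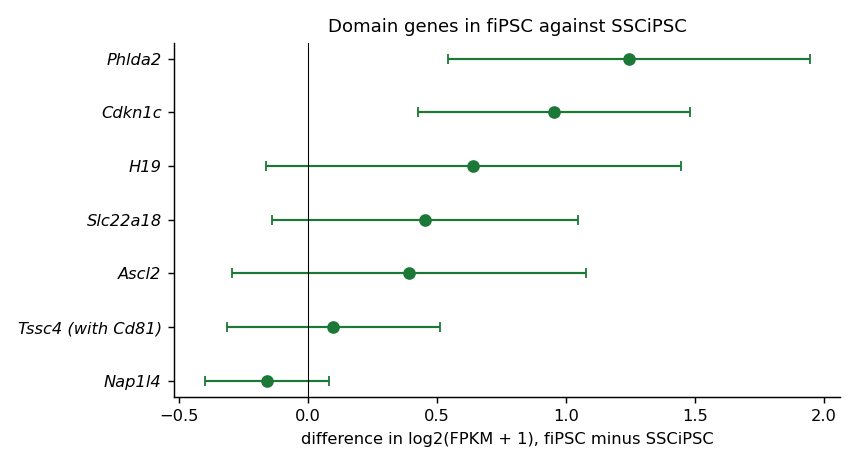
Difference in log2(FPKM + 1) of fiPSC minus SSCiPSC (horizontal axis) with its 95% interval for the 7 members tested; points are estimates over 3 libraries a group. The intervals of Phlda2 and Cdkn1c lie above 0 and those of the other 5 cross it, and none passed after adjustment over all loci.

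Igf2 and H19 were lowest in replicate 2 of each iPSC group, and so were 6 of the 11 fibroblast or feeder markers (Col1a2, Col3a1, Dcn, Lum, Pdgfra and Postn), whereas Col1a1, Pdgfrb, Thy1, Fn1 and Vim were not. Dcn, a proteoglycan of fibroblasts, was at 5.18, 2.24 and 6.88 FPKM in SSCiPSC and 4.74, 1.68 and 5.86 FPKM in fiPSC, and Col3a1, a fibrillar collagen, at 9.20, 6.61 and 11.6 FPKM and 10.2, 2.93 and 14.1 FPKM. C1qa, a complement gene of macrophages, was at 1.35, 0.190 and 1.89 FPKM in fiPSC, and in SSCiPSC at 0.142, 0.324 and 0.883 FPKM, where replicate 1 was lowest. Cdkn1c was lowest in replicate 2 of SSCiPSC but not of fiPSC. The whole fibroblast or feeder list, of which Vim and Fn1 were the most abundant, summed to 364, 452 and 460 FPKM in SSCiPSC and 303, 278 and 358 FPKM in fiPSC, with none at 0 throughout a group. The 5 macrophage markers, led by Cd68, summed to 14.2, 8.60 and 12.5 FPKM and 13.8, 13.3 and 13.3 FPKM, with none at 0. The macrophage sum, most of it Cd68, was thus lowest in replicate 2 of both groups, at 13.26 against 13.32 FPKM in replicate 3 of fiPSC, although 0 of the 5 genes were so singly, and the fibroblast sum was lowest there in fiPSC alone. SSC replicate 3, with the most H19, had the highest sums of fibroblast (843 FPKM, against 450 and 412 in replicates 1 and 2), macrophage (126, against 41.2 and 16.7) and Leydig markers. In that library, also the shallowest, the Sertoli and peritubular myoid sums were lowest (1168 and 70.2 FPKM). The endothelial sum was highest in replicate 1 (117 FPKM, against 96.8 in replicate 3). The part of these cells in the values of H19 and Igf2 was not tested. Without SSC replicate 3, 4 of 6 members tested passed in SSCiPSC, and 7 of 9 when the filter was also dropped. Of all loci, 13901 of 31540 and 21215 of 54102 passed under these settings. Dcn and Col3a1, and the comparison by lowest replicate, were chosen after the values were seen. The replicate numbers are not known to pair the libraries, and the share of all loci lowest in replicate 2 of both iPSC groups was not determined.

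**Figure D5:**
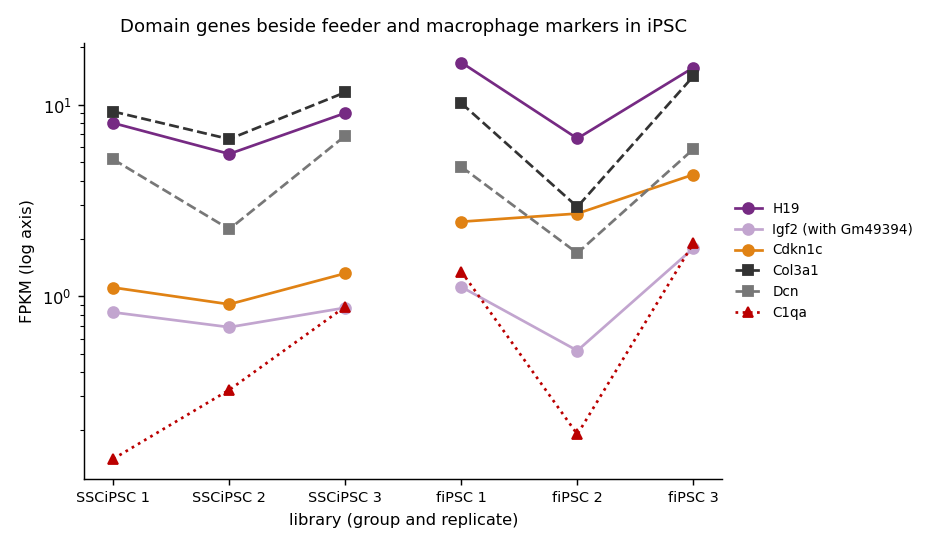
FPKM (vertical log axis) of H19, the Igf2 locus, Cdkn1c, Col3a1, Dcn and C1qa in each of the 6 iPSC libraries, with lines joining the libraries of a group only to guide the eye. H19, Igf2, Col3a1 and Dcn are lowest in replicate 2 of both groups, with H19 at 5.53 and 6.66 FPKM there.

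Of 10 listed trans factors that keep or remove imprints 8 had a locus to themselves, and 7 rose and 0 fell in SSCiPSC against SSC, with a median difference of 2.34 against 0.11 over all loci, and likewise 7 and 0 in fiPSC with a median of 2.1. Over all loci 26.2% rose in SSCiPSC and 28% in fiPSC. Zfp57, the zinc finger protein that binds methylated control regions, rose from 9.27, 9.31 and 7.36 FPKM in SSC to 175, 254 and 154 FPKM in SSCiPSC (4.31 ± 0.22, adjusted p = 6.55e-05 in limma) and was at 134, 121 and 163 FPKM in fiPSC. Trim28, its co-repressor, Dnmt1, the maintenance methyltransferase, and Uhrf1, which recruits it, rose as well. Tet1, which oxidises methylated cytosine, was at 1.48, 1.55 and 1.36 FPKM in SSC and at 180, 205 and 243 FPKM in SSCiPSC (6.40 ± 0.16, adjusted p = 7.57e-06), and Tet2 rose from 7.71, 6.98 and 11.2 FPKM to 47.4, 65.7 and 48.6 FPKM (2.52 ± 0.23, adjusted p = 0.000307). Dppa3, which protects imprints in the early embryo, was at 6.06, 11.9 and 5.50 FPKM in SSCiPSC and 29.2, 14.7 and 33.5 FPKM in fiPSC, groups that did not overlap, with a difference of 1.59 ± 0.37 that missed the threshold (adjusted p = 0.225). Ctcfl, the germ line paralogue of Ctcf, was the gene that did not pass against SSC, and none of the 8 passed between fiPSC and SSCiPSC.

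Among the partners of IGF-II that had a locus, the receptors Igf1r and Insr and the adaptors fell along with Igf2, while the messenger RNA binding proteins rose. The receptor Igf2r, also on the list, had no locus and is not covered. Of 13 genes of the IGF axis with a locus, 4 rose and 8 fell in SSCiPSC (median -1.28) and 4 rose and 8 fell in fiPSC (median -1.19). Over all loci 26.2% rose and 24.1% fell in SSCiPSC and 28% and 23.7% in fiPSC. Igf1r, the signalling receptor, fell from 101, 104 and 89.9 FPKM in SSC to 8.07, 7.82 and 8.29 FPKM in SSCiPSC (-3.45 ± 0.13, adjusted p = 3.00e-05 in limma) and was at 8.85, 10.5 and 7.31 FPKM in fiPSC. The adaptors Irs1 and Irs2, the insulin receptor Insr, the ligand Igf1 and the binding proteins Igfbp3, Igfbp5 and Igfbp7 fell too. Igf1, Irs1 and Igfbp5 were below 1 FPKM in every iPSC library and met the filter through the SSC libraries alone. The counts are therefore a description and not support, and both medians are the value of Igfbp5. Igfbp2, a secreted binding protein, rose from 24.3, 28.1 and 52.8 FPKM to 686, 512 and 654 FPKM in SSCiPSC (4.17 ± 0.30, adjusted p = 0.000170) and was at 496, 572 and 552 FPKM in fiPSC. Igf2bp1, Igf2bp2 and Igf2bp3, which bind Igf2 messenger RNA, rose in both. In fiPSC against SSCiPSC none of the 10 that could be tested passed. Many of these genes are also made by testis somatic cells, whose markers fell in the same comparison, and their part was not tested.

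Among the relatives of Cdkn1c, Cdkn1a and Cdkn1b, which encode the inhibitors p21 and p27, did not pass in either comparison with SSC, with differences of 0.04 ± 0.28 (adjusted p = 0.914) and 0.17 ± 0.28 (adjusted p = 0.639) in SSCiPSC by limma. Of 10 genes of this family and of the cyclins and kinases it acts on, 5 rose and 1 fell in SSCiPSC (median 1.17), and 6 rose and 1 fell in fiPSC (median 1.15). Over all loci 26.2% rose and 24.1% fell in SSCiPSC and 28% and 23.7% in fiPSC. Ccne1, a cyclin of the entry into S phase, rose from 2.79, 3.6 and 3.56 FPKM in SSC to 109, 182 and 134 FPKM in SSCiPSC (5.02 ± 0.22, adjusted p = 4.73e-05). Cdk4, Ccnd1, Ccnd3 and Ccna2 rose as well, and Ccnd2 fell from 33.5, 34.7 and 33.9 FPKM to 0.712, 1.43 and 1.74 FPKM (-3.96 ± 0.23, adjusted p = 9.58e-05). None of the 10 passed between fiPSC and SSCiPSC.

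Of imprinted genes outside the domain that act on growth, 7 had a locus, and 1 rose and 5 fell in both comparisons with SSC. Their medians were -2.49 in SSCiPSC and -2.53 in fiPSC, against 0.11 and 0.17 over all loci, of which 24.1% and 23.7% fell and 26.2% and 28% rose. Dlk1, a paternally expressed membrane ligand, fell from 13.2, 15.6 and 43.8 FPKM in SSC to 0.207, 0.237 and 0.379 FPKM in SSCiPSC (-4.11 ± 0.46, adjusted p = 0.000644 in limma), and Plagl1, a zinc finger factor, from 20.1, 15.1 and 29.7 FPKM to 2.08, 4.12 and 2.68 FPKM (-2.49 ± 0.32, adjusted p = 0.00103). In both comparisons Dlk1 met the filter through the SSC libraries alone, so its test and its place in the counts are a description and not support. Grb10, an adaptor that dampens insulin and IGF signalling, fell by 2.79 ± 0.28 (adjusted p = 0.000423). Gnas and Dcn fell too, and Dcn is also counted among the fibroblast or feeder markers. Among the SSC libraries, Dcn, Dlk1, Plagl1 and Gnas, which fell, were highest in replicate 3, and so were Peg3 and Meg3, which did not fall. Grb10 was highest in replicate 1. SSC replicate 3 was the library with the highest fibroblast, macrophage and Leydig sums. Sertoli and myoid sums were lowest there, and the endothelial sum was highest in replicate 1. The part of those cells was not tested. Peg3, a zinc finger gene on the same chromosome as the domain but far from it, rose from 17.3, 15.7 and 24.5 FPKM to 71.1, 62.2 and 81.9 FPKM (1.87 ± 0.20, adjusted p = 0.000589). Meg3, the non-coding RNA made next to Dlk1, was at 33.3, 20.0 and 71.9 FPKM in SSC, 58.4, 56.3 and 89.4 FPKM in SSCiPSC and 57.4, 71.9 and 69.2 FPKM in fiPSC and did not pass. Of the 6 that could be tested, none passed between fiPSC and SSCiPSC.

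Phlda2 and Ascl2 are known for the trophoblast, so its markers were read beside them. Of 6 with a locus of their own, Eomes, which is also expressed in other early lineages, was at 4.10, 2.40 and 1.85 FPKM in SSC, 6.03, 5.43 and 6.73 FPKM in SSCiPSC and 4.49, 4.95 and 5.18 FPKM in fiPSC. Cdx2, Gata3 and Hand1 stayed below 1.5 FPKM in every library, and Elf5 was at 0 in SSC and at no more than 0.241 FPKM in iPSC. Tfap2c, which pluripotent and germ cells also express, was at 18.8, 24.6 and 23.2 FPKM in SSCiPSC and 21.3, 24.8 and 22.7 FPKM in fiPSC against 1.78, 0.910 and 0.304 FPKM in SSC. In fiPSC, where Phlda2 was highest, Cdx2, Elf5, Gata3 and Hand1 were thus at or near 0, while Eomes and Tfap2c were not.

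The genes whose pattern was most like that of H19 and Cdkn1c were taken by Pearson's r of log2(FPKM + 1) over the 9 libraries among 6781 genes with a locus of their own and a mean of at least 5 FPKM. For H19 they were Cd34 (0.985), Jag1 (0.982), Pik3r1 (0.982), Pkdcc (0.981) and Cxcr4 (0.981). Cd34, a surface glycoprotein of vascular and stromal progenitors, was at 12.9, 11.3 and 24.4 FPKM in SSC, 0.329, 0.168 and 0.517 FPKM in SSCiPSC and 0.831, 0.358 and 1.07 FPKM in fiPSC, highest in SSC replicate 3 and lowest in replicate 2 of each iPSC group, as H19 was. Jag1 had the same order, but in SSCiPSC Pik3r1 was lowest in replicate 3 and Pkdcc and Cxcr4 in replicate 1. The genes were picked for their likeness to H19 in these libraries, so a shared order is not support. Cdh5 and Acta2, an endothelial and a myoid marker, were also far higher in SSC. Of the 6 endothelial markers, 4 were lower in both iPSC groups, Pecam1 was higher and Tek did not pass. Of the 4 myoid markers, 2 were lower in both, and Cnn1 and Des did not pass. The endothelial markers that were lower, and Myh11, met the filter through the SSC libraries alone. The part of these cells was not tested. For Cdkn1c they were Trio (0.992), Usp25 (0.991), Ankrd50 (0.991), Shroom4 (0.991) and Btg2 (0.988). Trio was at 21.9, 23.9 and 23.7 FPKM in SSC, 1.76, 1.90 and 2.32 FPKM in SSCiPSC and 3.83, 2.58 and 5.26 FPKM in fiPSC. Each r is a description that rests largely on the gap between SSC and iPSC, which the 9 points share with differences in depth.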

How the data were processed

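Per the labels, RNA was depleted of ribosomal RNA and made into libraries with a stranded mRNA kit, and reads were processed with Trimmomatic 0.32, TopHat2 2.0.9, Bowtie2 2.1.0, Cufflinks 2.2.1 and Cuffdiff. The study's methods describe turning the mRNA of total RNA into libraries with such a kit. How this was combined with the depletion is not given in the sources used here, and bears on non-coding RNA. The deposited values are FPKM, which the authors calculated for 54914 loci. The notes name mm9, but the coordinates fit GRCm38, in which 98.1% of the loci whose ends lay within 300 bp of those of a gene had its strand. Strand was inferred from the sort order of the table, and loci were named from GENCODE M21 by at least 50% reciprocal overlap. One locus with a blank value was left out. Depth was estimated from the steps of the lowest FPKM values, and intervals for a 0 are for counting error only.

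FPKM are not counts, so no count model was used. Pairs of groups were compared with limma 3.58.1 in R 4.3.3 on log2(FPKM + 1), with loci of at least 1 FPKM in at least 3 of 6 libraries, eBayes with a trend, Benjamini-Hochberg adjustment over all loci and a threshold of 0.05. The procedure was tested on simulated data, where it missed many of the planted changes, most of the smaller ones among them, so a locus that did not pass may still differ. Named genes were the 10 members, genes of fixed lists and the 5 genes most like H19 and Cdkn1c. Members and lists were chosen with earlier results of these data known. Alternatives were a pseudocount of 0.1, other filters, quantile normalization, median-ratio scaling, eBayes with no trend, a joint fit of the 9 libraries, blocking on replicate number, every locus inside a gene and each library left out, the last also without a filter, which was added after seeing the data.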

Additional observations from a re-analysis of the deposited data

How the results depend on the processing

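H19, Igf2, Cdkn1c and Osbpl5 passed as lower against SSC in both kinds of iPSC under every alternative in which they could be tested, and Phlda2 as higher under all but the setting given above. The members past the threshold numbered 6 in SSCiPSC against SSC and between 5 and 7 under the other settings with all libraries. They ranged from 3 to 7 with a library left out, with 3 of 6 tested without SSC replicate 1 or SSC replicate 2, where the filter removed Igf2 and Osbpl5, and 6 of 9 in each case when the filter was dropped. Of all loci, 13113 of 31311 passed without SSC replicate 1 and 13901 of 31212 without SSC replicate 2. When the filter was dropped these were 19251 of 54069 and 20751 of 53741. In fiPSC against SSC they numbered 7, and 5 to 8 under alternatives, and between fiPSC and SSCiPSC 0 throughout. Ascl2 in SSCiPSC turned to -0.23 without SSC replicate 3, -0.17 without SSCiPSC replicate 2 and -0.018 without SSCiPSC replicate 1, and reached 0.32 without SSCiPSC replicate 3. Nap1l4 turned to -0.70 (adjusted p = 0.0222 in limma) in SSCiPSC and -0.75 (adjusted p = 0.0174) in fiPSC under quantile normalization and passed as higher in SSCiPSC under median-ratio scaling (0.51, adjusted p = 0.0372). The cause was not tested. Against SSC, the median over all loci shifted by 0.17 in SSCiPSC and 0.13 in fiPSC under median-ratio scaling. Of all loci 18396 passed in SSCiPSC against SSC, 9707 with a mean of at least 5 FPKM and 11357 without SSCiPSC replicate 3, and 19680 in fiPSC against SSC, with 10158 and at least 11300 under the same kinds of setting. The split into higher and lower calls also moved. In SSCiPSC it was 9191 and 4710 without SSC replicate 3 and 10905 and 7624 under median-ratio scaling. In fiPSC it was 10658 and 9022 in all, 6526 and 3632 with a mean of at least 5 FPKM, 10821 and 5764 without SSC replicate 3 and 4757 and 6543 without fiPSC replicate 1. When the filter was dropped as well, higher calls were again the more numerous without SSCiPSC replicate 3 (8655 and 6350) and without fiPSC replicate 1 (9743 and 6611). Between fiPSC and SSCiPSC 23 loci passed, and from 2 to 14 with a library left out, 11 with all 9 libraries in the fit or with a mean of at least 5 FPKM. With the replicate block 5, 0 and 7 members passed in SSCiPSC against SSC, fiPSC against SSCiPSC and fiPSC against SSC. Of all loci, 16926 of 36544, 6 of 33948 and 17546 of 38007 passed in these comparisons. Deviations of libraries with the same number correlated at -0.24 to 0.02, and those of libraries with different numbers at -0.13 to 0.19. These values show no pairing by number, but they cannot tell whether libraries shared an animal or a batch.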
